A study of Mus musculus with 6 samples.

Results

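The 9 genes described here code for transcription factors that pattern the septum and the subpallium, the ventral part of the embryonic telencephalon, and they are Zic1, Zic2, Zic4, Zic5, Six3, Meis2, Nkx2-1, Lhx6 and Foxp2. They were chosen by gene symbol, by a rule that uses no measured value, though with earlier results of these data known, as a check on the dissection and on neuron identity. Each symbol matched 1 row of the 35415 genes in the count and FPKM tables, and all 9 were among the 17255 genes with enough counts to be tested.
The lateral septum (LS) of wild-type female C57BL/6 mice was collected after 12 weeks on control chow or on chow with olanzapine, a second-generation antipsychotic, mixed in at 50 mg per kg. The mice were 8 weeks old on arrival and were acclimated for 1 week. Total RNA was sequenced as 6 libraries, 3 per group, and each library was a pool of 3 mice, which hides how single animals varied. The counts on genes summed to between 38208153 and 39868872 per library.

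Patterning factors divide the embryonic telencephalon into domains, and many of them stay on in the adult neurons that descend from each domain. Zic genes mark the septal and midline domains, Six3 and Meis2 are used in the lateral ganglionic eminence and the striatum that grows from it, and Nkx2-1 and its target Lhx6 mark the medial ganglionic eminence and cells that leave it. In adult tissue the RNA of such factors is therefore a clue to the neuron populations in a dissection, though some are also expressed elsewhere, as Zic genes are in meninges.

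All 9 factors were detected in every pool. The lowest count was 254 reads, for Nkx2-1 in olanzapine pool 1, where counting error alone has a coefficient of variation of 6.27%. None of the 9 was called between the groups. With edgeR's quasi-likelihood F test and Benjamini-Hochberg correction across the tested genes, 0 of 9 had an adjusted p under 0.05, against 401 genes or 2.32% of all tested, and 0 of 9 passed with a log2 fold change beyond 1, against 1.01%. DESeq2 and limma called 0 of 9 as well, though Zic1 came close to the threshold with DESeq2 (DESeq2 adjusted p = 0.0530). At an unadjusted p under 0.05 the count was 2 of 9, Zic1 and Zic5, against 17.6% of all genes. The olanzapine pools lay wholly below the control pools for the same 2 genes, against 11.0% of all genes, and 24.3% of all genes had groups that did not overlap in either direction. The log2 fold change, olanzapine over control, was below 0 in 8 of 9 factors, against 49.3% of all genes, and its median was -0.21 over the 9 and 0.00 over all tested genes. Without olanzapine pool 1 it was below 0 in 5 of 9, with a median of -0.09. The median was -0.33 without either of the other olanzapine pools, and it ran from -0.26 to -0.17 without each control pool. In 8 of 9 factors the lowest of the 6 pools was olanzapine pool 1, which held the lowest value of 22.3% of all genes.

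Olanzapine pool 1 also stood apart in markers of other tissue. All 8 markers of cortical glutamatergic neurons were highest in this pool, where they summed to 1081 TMM-normalised CPM (read counts scaled to a common library size), against 123 to 171 in the other 5 pools. Slc17a7, which encodes the vesicular glutamate transporter of cortical neurons, had 659 CPM there and 10.7 to 55.1 CPM elsewhere. The log2 fold change of each factor is therefore given with and without this pool, while profiles and within-pool ratios include it. In bulk tissue, fewer cells of a type and less RNA per cell cannot be told apart, and the part of the cortical markers in the factor levels was not tested.

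**Figure D1:**
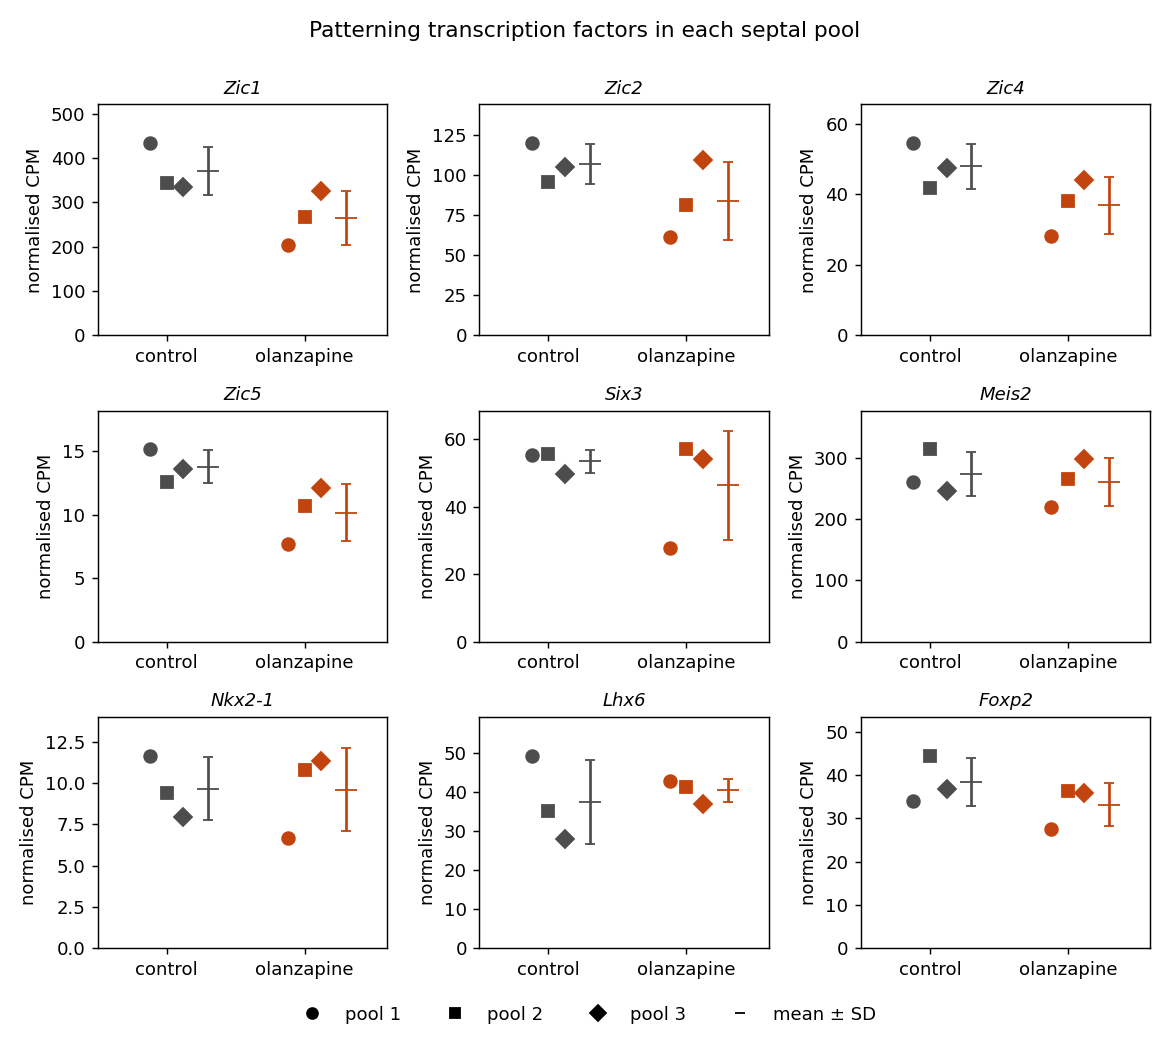
Normalised CPM (y axis, separate linear scale from 0 in each panel) of the 9 factors in the 3 control and 3 olanzapine pools, with a point per pool, whose shape gives its number, and the group mean ± SD. Zic1 and Zic5 are the panels where no olanzapine pool reaches a control pool, and olanzapine pool 1 is lowest in every panel except Lhx6.

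The order of the factors was read from FPKM, which is per length of the gene, as the mean over the 6 pools. Zic1 had the highest level, 50.1 FPKM, followed by Meis2 at 32.9 and Zic2 at 32.1. Six3 had 13.2 FPKM and Lhx6 10.2 FPKM. Foxp2, Zic5, Zic4 and Nkx2-1 followed with 5.01, 4.72, 2.66 and 2.52 FPKM. Neighbours in this order overlapped in their ranges over the pools, with 2 exceptions. Zic2 lay between 20.3 and 39.7 FPKM and Six3 between 7.24 and 15.6 FPKM, and Lhx6 lay between 7.32 and 12.6 FPKM and Foxp2 between 3.78 and 6.19 FPKM. Among all tested genes Zic1 stood at percentile 93.1 of mean FPKM and Nkx2-1 at percentile 39.4.

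**Figure D2:**
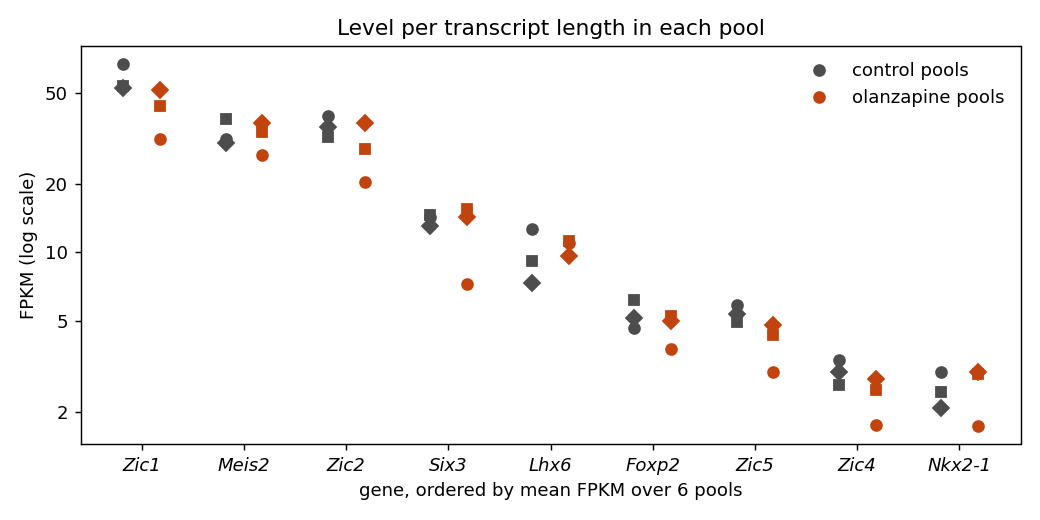
FPKM of the 9 factors (log scale), ordered by their mean over 6 pools, with a point per pool coloured by group. The plot falls into 3 bands, with Zic1, Meis2 and Zic2 highest, then Six3 and Lhx6, then Foxp2, Zic5, Zic4 and Nkx2-1.

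The Zic genes encode zinc-finger proteins of the dorsal midline and septum, and 4 of them lie in 2 pairs of neighbours on opposite strands. In GRCm38, Zic1 lies at chr9:91358058-91365810 on the minus strand and Zic4 at chr9:91362413-91389348 on the plus strand. They share 3398 bases, of which 60 are exonic in both. Zic5 lies at chr14:122456795-122465677 on the minus strand and Zic2 at chr14:122475435-122479852 on the plus strand, with 9757 bases between them. The strand setting of the counting is not given in the sources used here, so reads in the bases that Zic1 and Zic4 share could be split or dropped.
The promoters of Zic1 and Zic5 are shown because these were the factors whose groups did not overlap. The sequences come from the RefSeq promoter table of GRCm38.p6, which matched 7 of the 9 factors, and they are the bases upstream of the gene start that no annotated exon covers. Capitals mark matches, on either strand, to the CCAAT box, whose name gives its letters, to the GC box, searched as GGGCGG, or to the TATA box, searched as TATAAA.
Zic1, chr9:91365811-91366018, minus strand: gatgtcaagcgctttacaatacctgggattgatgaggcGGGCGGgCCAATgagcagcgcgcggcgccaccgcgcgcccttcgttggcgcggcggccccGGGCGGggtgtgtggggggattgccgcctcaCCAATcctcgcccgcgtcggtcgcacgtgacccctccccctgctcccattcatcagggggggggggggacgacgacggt
Zic5, chr14:122465678-122465908, minus strand: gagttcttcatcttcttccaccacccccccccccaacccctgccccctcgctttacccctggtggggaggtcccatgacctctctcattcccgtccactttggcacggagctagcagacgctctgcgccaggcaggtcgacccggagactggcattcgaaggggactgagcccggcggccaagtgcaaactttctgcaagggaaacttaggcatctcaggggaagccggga
The counts below are for the 250 bases upstream of the RefSeq start, a window longer than the 208 bases printed for Zic1 and the 231 printed for Zic5, since its remaining bases lie inside the gene as GENCODE places it. In the window of Zic1 there were 2 CCAAT boxes, 2 GC boxes, 27 CpG sites and a GC content of 66%. The same window of Zic5 held none of the 3 motifs, 11 CpG sites and a GC content of 62.4%. Over 32851 promoters, 33.8% held a CCAAT box, 32.7% a GC box and 12.4% a TATA box, and the medians were 6 CpG sites and a GC content of 52.4%. These matches describe the letters in the windows only.

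Zic1, the most abundant of the factors, had 434, 344 and 335 CPM in control pools 1 to 3 and 203, 268 and 326 CPM in olanzapine pools 1 to 3. The groups did not overlap, but olanzapine pool 3 and control pool 3 were close. The log2 fold change was -0.48 (SE 0.17, 95% interval -0.88 to -0.08, adjusted p = 0.202 by edgeR). Without olanzapine pool 1 it was -0.32 (95% interval -0.62 to -0.02, edgeR adjusted p = 0.228).
Zic5, the rarest of the 4 Zic members by count, had 15.1, 12.6 and 13.6 CPM in the control pools and 7.70, 10.7 and 12.1 CPM in the olanzapine pools. As for Zic1, every olanzapine pool was below every control pool and pool 1 was the lowest. Its log2 fold change was -0.44 (SE 0.18, edgeR adjusted p = 0.248), and -0.28 without olanzapine pool 1 (SE 0.14, edgeR adjusted p = 0.324).
Zic4, the neighbour of Zic1, gave 54.6, 41.7 and 47.6 CPM in the control pools and 28.2, 38.1 and 44.2 CPM in the olanzapine pools. Olanzapine pool 3 lay inside the control range. Between the groups the log2 fold change was -0.38 (SE 0.17, edgeR adjusted p = 0.288) with all pools and -0.22 (edgeR adjusted p = 0.371) without olanzapine pool 1.
Zic2, the neighbour of Zic5, is needed for division of the forebrain midline. It had 120, 95.7 and 105 CPM in the control pools and 61.1, 81.3 and 109 CPM in the olanzapine pools. Olanzapine pool 3 was above 2 of the 3 control pools, so the groups overlapped. For Zic2 the log2 fold change was -0.35 (SE 0.19, edgeR adjusted p = 0.392) and -0.17 without olanzapine pool 1 (edgeR adjusted p = 0.560).

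Across the 6 pools each Zic gene varied about as much as the others, from 1.94 times between lowest and highest pool for Zic4 to 2.13 times for Zic1. The ratios between the Zic genes varied less. The CPM ratio of Zic1 to Zic2 lay between 2.98 and 3.61 over the pools, that of Zic1 to Zic4 between 7.03 and 8.25, and that of Zic1 to Zic5 between 24.6 and 28.7. In all 3 ratios the groups overlapped. The pools thus differed in the level of the Zic genes more than in the proportions among them.
A likeness of profiles was measured as the root mean square (RMS) difference between centred log2 CPM over the 6 pools, among 131 genes of the factor and marker lists with a mean of at least 1 FPKM. The nearest profile to Zic4 was that of Zic5, and the reverse held too, with an RMS of 0.05. Zic5 and Zic4 were nearest to Zic1, at 0.07 and 0.09. For Zic2 the nearest were Dlx1, a homeobox gene of subpallial GABAergic neurons, at 0.06 and Zic4 at 0.07. For scale, the centred profile of Zic1 itself had an RMS of 0.34. These points are 6 libraries, and the low value in olanzapine pool 1 enters each of these profiles.

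**Figure D3:**
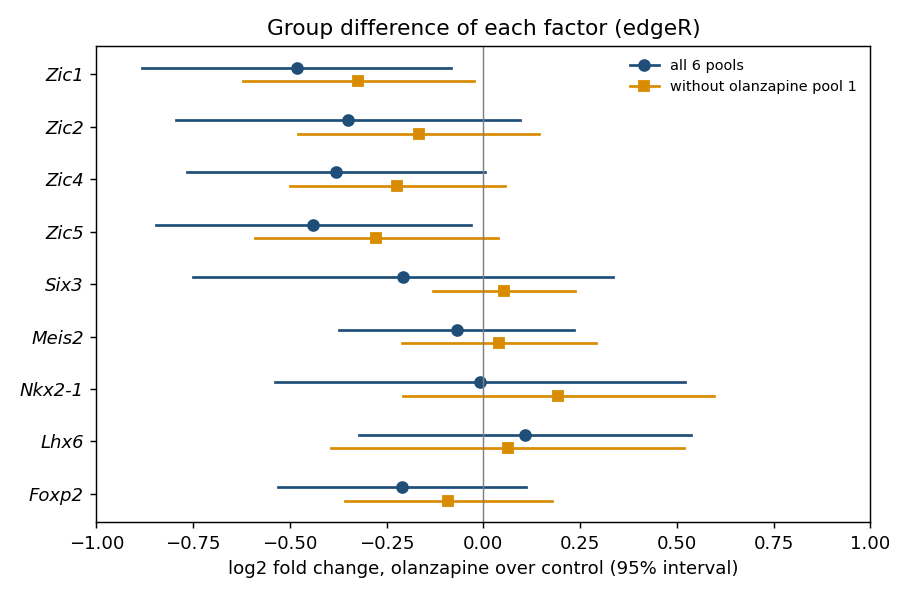
Log2 fold change, olanzapine over control, of the 9 factors with 95% intervals from edgeR, with all 6 pools and without olanzapine pool 1. The intervals of Zic1 and Zic5 with all pools, and of Zic1 without the pool, do not cross 0, and the points of Six3, Meis2 and Nkx2-1 cross to the other side of 0 without the pool.

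Six3 is a homeobox gene of the anterior forebrain and eye, and it lies at chr17:85613608-85629302 on the plus strand. It had 55.3, 55.5 and 49.5 CPM in the control pools and 27.8, 57.0 and 54.0 CPM in the olanzapine pools. Olanzapine pool 1 alone was low, at 0.513 of the mean of the other 5 pools, and the other 5 lay within 49.5 to 57.0 CPM. This gave Six3 a log2 fold change of -0.21 with all pools (SE 0.24, edgeR adjusted p = 0.701) and 0.05 without olanzapine pool 1 (SE 0.08, 95% interval -0.13 to 0.24). Sp9, a zinc-finger regulator of subpallial neurons, and the homeobox gene Dlx2 had the profiles nearest to Six3, each at an RMS of 0.17. The antisense gene Six3os1 shares 4791 bases with Six3, of which 106 are exonic in both.
Meis2, a TALE homeobox gene whose product works with Pbx and Dlx proteins, lies at chr2:115863064-116065839 on the minus strand. It had 261, 313 and 246 CPM in the control pools and 219, 265 and 298 CPM in the olanzapine pools. The groups overlapped, and Meis2 spread least of the 9 over the pools, 1.43 times from lowest to highest. Its log2 fold change was -0.07 (SE 0.13, 95% interval -0.37 to 0.23, edgeR adjusted p = 0.833) with all pools and 0.04 without olanzapine pool 1 (SE 0.11). Its nearest profile was that of Nts, the gene for the neuropeptide neurotensin, at an RMS of 0.08.
Foxp2, a forkhead gene of striatal and deep cortical neurons, lies at chr6:14901349-15441977 on the plus strand. It had 33.9, 44.5 and 36.8 CPM in the control pools and 27.4, 36.3 and 35.8 CPM in the olanzapine pools. Both olanzapine pools 2 and 3 lay within the control range. The log2 fold change was -0.21 (SE 0.14, edgeR adjusted p = 0.478) and -0.09 without olanzapine pool 1. Tshz1, a zinc-finger factor of the lateral ganglionic eminence, was nearest in profile, at an RMS of 0.06.

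Nkx2-1, the homeobox gene that specifies the medial ganglionic eminence, lies at chr12:56531958-56536908 on the minus strand. It had 11.7, 9.43 and 7.92 CPM in the control pools and 6.70, 10.8 and 11.4 CPM in the olanzapine pools, which overlapped. Between groups the log2 fold change was -0.01 (SE 0.23, 95% interval -0.54 to 0.52, edgeR adjusted p = 0.988), and 0.19 without olanzapine pool 1 (SE 0.18). Its nearest profile was that of Chat, which encodes the acetylcholine-synthesising enzyme of medial septal cholinergic neurons, at an RMS of 0.12.
Lhx6, a LIM-homeobox gene switched on by Nkx2-1 in migrating interneurons, lies at chr2:36081953-36105408 on the minus strand. It had 49.4, 35.2 and 28.05 CPM in the control pools and 42.9, 41.4 and 37.0 CPM in the olanzapine pools. It was the only one of the 9 that was not lowest in olanzapine pool 1, and both its highest and its lowest pool were controls. The log2 fold change was 0.11 (SE 0.19, 95% interval -0.32 to 0.54, edgeR adjusted p = 0.813) with all pools and 0.06 without olanzapine pool 1 (SE 0.20). Lhx8, a relative that acts in cholinergic neurons, was nearest in profile, at an RMS of 0.10.
The CPM ratio of Nkx2-1 to Lhx6 ran from 0.156 in olanzapine pool 1 to 0.307 in olanzapine pool 3, and the groups overlapped. The ratio of Zic1 to Lhx6 varied 2.52 times over the pools. It was wider than any ratio among the Zic genes.
The ratio of Zic1 to Meis2 in control pools 1 to 3 was 1.67, 1.098 and 1.36, against 0.928, 1.01 and 1.09 in olanzapine pools 1 to 3. Olanzapine pool 3 came just under control pool 2, and no test was made of this ratio.

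Most LS neurons are GABAergic, so the factors were also set against the mean CPM of the GABA genes Gad1, Gad2 and Slc32a1. That mean was 713, 611 and 548 CPM in the control pools and 460, 533 and 613 CPM in the olanzapine pools, again lowest in olanzapine pool 1. Relative to it, Zic1 was at 0.610, 0.563 and 0.611 in control pools 1 to 3, against 0.442, 0.503 and 0.531 in olanzapine pools 1 to 3. The groups still did not overlap, and the log2 difference was -0.28. Zic5 differed by -0.24 on the same scale, also without overlap. On this scale 1.48% of all tested genes had every olanzapine pool below every control pool, and the lower mean of the GABA genes in olanzapine pool 1 raises every gene of that pool on it. The groups overlapped for the other 7 factors, whose log2 differences ran from -0.17 for Zic4 to 0.37 for Lhx6. Without olanzapine pool 1 the differences were -0.20 for Zic1, -0.16 for Zic5, -0.10 for Zic4 and -0.06 for Zic2. They were above 0 for the other 5 factors, from 0.04 for Foxp2 to 0.33 for Nkx2-1, and Six3 turned from -0.05 to 0.17. The 2 olanzapine pools left were then above all control pools for Nkx2-1 and below them for Zic1 and Zic5. Groups separate more easily with 2 pools than with 3, and the share of all genes that did so was not counted, so nothing is read from this.
Genes of different genomic span can move differently between RNA libraries. The tested genes nearest in span to each factor had median log2 fold changes between -0.15, for Foxp2, and 0.07, for Nkx2-1. Subtracting these medians left -0.53 for Zic1, -0.50 for Zic5, -0.41 for Zic2 and -0.39 for Zic4. Meis2 and Foxp2, with the longest spans, came to 0.05 and -0.05.

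The wider families were read from 24 relatives, of which 19 were tested. By edgeR, 0 of 19 were called, 3 had an unadjusted p under 0.05, and the median log2 fold change was 0.04, with DESeq2 calling 1, lower, and limma none. Pbx2, at 17.2 FPKM, and Lhx2, at 11.9 FPKM, had log2 fold changes of 0.08 and 0.13.
Among 25 other subpallial factors, 0 were called by edgeR or limma and 2 by DESeq2, Prox1 and Zfhx3, both lower, while 6 had an unadjusted edgeR p under 0.05. The median log2 fold change was -0.25, with 19 of 25 below 0, and 17 of 25 were lowest in olanzapine pool 1. Without that pool the median was -0.17 and 1 was called, lower. That gene was Zfhx3, named after its values were seen, with a log2 fold change of -0.55 and an edgeR adjusted p of 0.0425. Dlx1 had 98.5, 87.0 and 87.5 CPM in the control pools and 55.2, 69.4 and 92.9 CPM in the olanzapine pools, a log2 fold change of -0.33 (SE 0.17, edgeR adjusted p = 0.362). Dlx6, another homeobox gene of that family, had a log2 fold change of 0.00.
Pallial factors went the other way in their median, 0.64 over 14 tested, and 9 of 14 were highest in olanzapine pool 1. Without that pool the median was -0.31. Tbr1, a marker of deep cortical neurons, had a log2 fold change of 0.94 with all pools and -0.72 without that pool. Eomes, named Tbr2 as well, was the 1 gene of the 4 factor lists that was called. It had 13.7, 10.7 and 11.6 CPM in the control pools and 4.35, 5.56 and 6.46 CPM in the olanzapine pools, with no overlap. Eomes fell by 1.14 on the log2 scale (SE 0.18, edgeR adjusted p = 0.0221). Leaving out single pools gave between -1.28 and -0.998, and its call was lost without control pool 1, 2 or 3 or olanzapine pool 2 (edgeR adjusted p from 0.0720 to 0.0946), with the replicate number as a block (edgeR adjusted p = 0.0832) and with limma on FPKM without a filter (adjusted p = 0.0744).
Of 9 tested diencephalic factors 0 were called by edgeR, DESeq2 or limma and 1 had an unadjusted edgeR p under 0.05. Their median log2 fold change was -0.50, led in level by Tcf7l2, a factor of the thalamus, at 5.16 FPKM, and without olanzapine pool 1 it was -0.07.

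The label of the tissue was checked against marker lists. LS neuron markers summed to between 2143 and 2767 CPM in the control pools and between 1868 and 2417 CPM in the olanzapine pools, and none of the 9 was absent. Most of this sum came from the GABA genes Gad1, Gad2 and Slc32a1, so it cannot tell the LS from other GABAergic tissue. Trpc4, a channel gene rich in the LS, had a mean of 8.33 FPKM, and Crhr2, a receptor for corticotropin-releasing peptides, had 3.43 FPKM. Their log2 fold changes were -0.49 and -0.31, and over the list 7 of 9 were below 0 and 2 above. By edgeR 0 of 9 were called and 3 had an unadjusted p under 0.05. The median log2 fold change was -0.31 with all pools and -0.15 without olanzapine pool 1. DESeq2 called 1, Ndst4, lower, which had a log2 fold change of -0.72 by edgeR (edgeR adjusted p = 0.0865). The pools also held striatal projection neuron markers, with Penk, the enkephalin precursor, at 318 FPKM and Drd2, a dopamine receptor, at 31.6 FPKM. Striatal markers summed to 1408, 2419 and 1812 CPM in the control pools and to 1439, 2835 and 2815 CPM in the olanzapine pools. Medial septum markers, which include Chat, were near level, at 93.3 to 129 CPM against 91.8 to 110 CPM.
By edgeR 0 were called among 9 striatal, 7 medial septum, 6 medial ganglionic eminence interneuron and 8 cortical markers, with 1, 0, 2 and 2 at an unadjusted p under 0.05. DESeq2 called 1 of these, the striatal Rgs9. The median log2 fold changes were 0.28, -0.12, 0.14 and 1.51 with all pools. Without olanzapine pool 1 they were 0.55, -0.10, 0.20 and -0.54, and edgeR then called 1 striatal marker, higher. Sst and Pvalb each stand in 2 marker lists, and the pallial and cortical lists share genes.
Zic genes are also expressed in meninges, so surface tissues were examined. Choroid plexus markers summed to 105, 2707 and 7501 CPM in the control pools and to 1162, 4712 and 68.9 CPM in the olanzapine pools. Meninges markers ran from 59.8 to 323 CPM in the control pools and from 39.0 to 237 CPM in the olanzapine pools. Ependyma markers were lowest in olanzapine pool 1 for 6 of 6 genes, at a sum of 104 CPM against 184 to 304 CPM in the others, and the part of choroid plexus, meninges and ependyma in the factor levels was not tested.
By edgeR 0 of 8 choroid plexus, 11 meninges, 6 ependyma, 6 astrocyte and 6 oligodendrocyte markers were called, by DESeq2 and limma 0 as well, with 0, 0, 1, 3 and 0 at an unadjusted p under 0.05. Their median log2 fold changes were -0.60, -0.26, -0.54, -0.22 and -0.01 with all pools, and -0.35, -0.44, -0.30, -0.16 and 0.05 without olanzapine pool 1. The summed CPM of the astrocyte markers did not overlap, at 4092.5 to 4660 CPM in the control pools and 3322 to 3900 CPM in the olanzapine pools.
The lists with most calls were those of hepatocytes, the main cells of the liver, and of long noncoding RNAs kept in the nucleus. All 9 hepatocyte markers were called higher by edgeR, with a median log2 fold change of 4.09, and summed to 11.7 to 21.3 CPM in the control pools and 235 to 293 CPM in the olanzapine pools. Of 6 noncoding RNAs 5 were called higher by edgeR, and the 6 summed to 1810 to 2304 CPM against 4511 to 5548 CPM. DESeq2 called 9 hepatocyte markers and 6 noncoding RNAs higher, limma on log2(FPKM + 1) 8 and 4, and the replicate block 9 and 4. In both lists the summed CPM of every olanzapine pool was above that of every control pool, and their part in the factor levels was not tested.

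**Figure D4:**
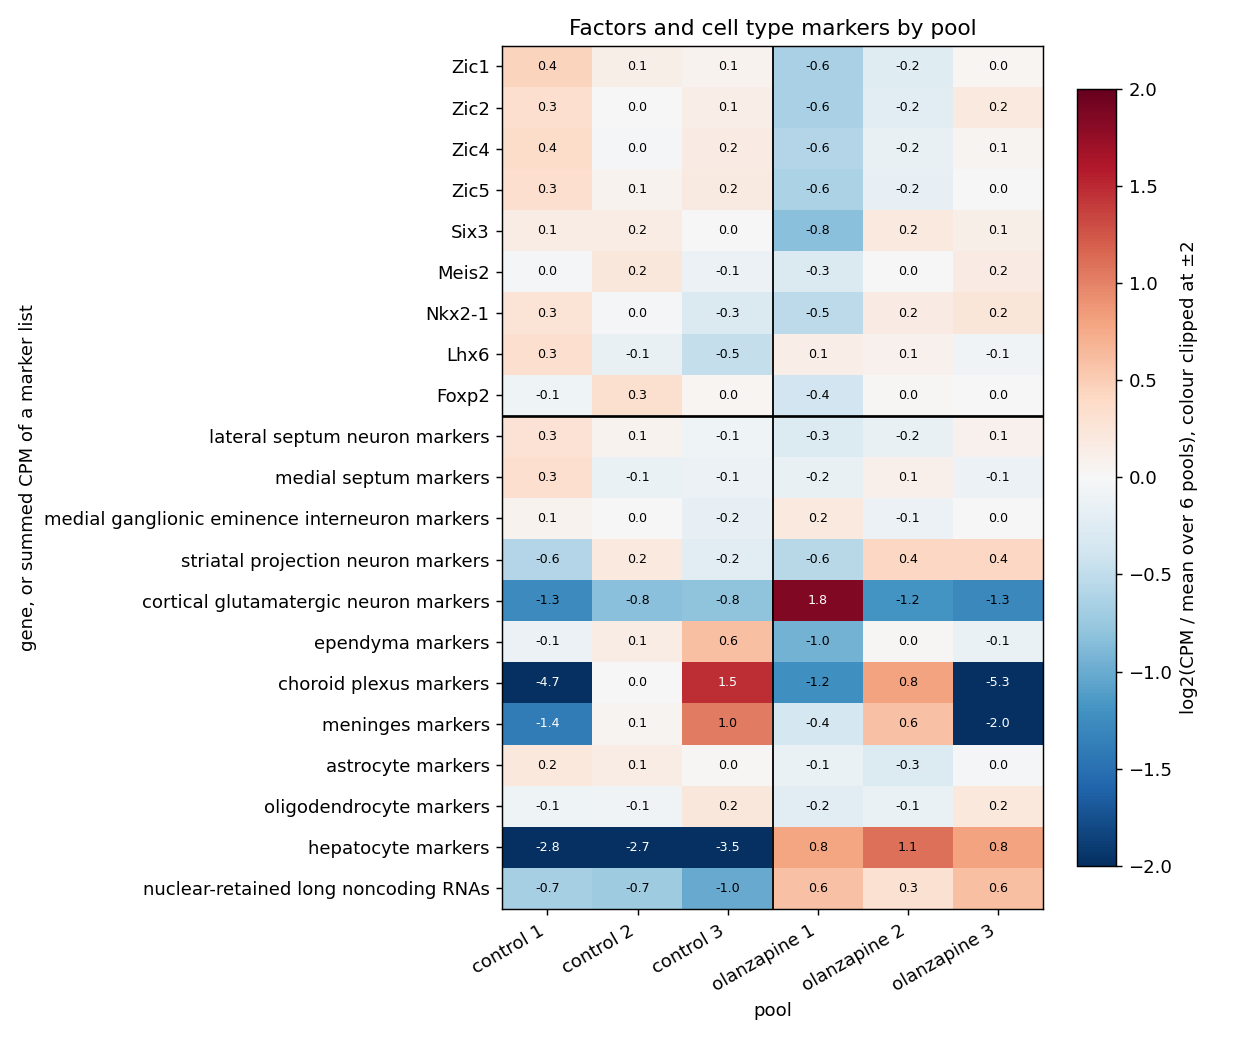
Log2 of CPM over the mean of the 6 pools (colour and printed value, colour clipped at ±2) for the 9 factors and for the summed CPM of each marker list, with 1 column per pool. The column of olanzapine pool 1 is low for the Zic genes and Six3 and high for cortical markers, while hepatocyte markers and noncoding RNAs are high in all 3 olanzapine pools.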

How the data were processed

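The libraries were 6 pools of septal RNA, 3 per diet group as labelled. The authors trimmed reads with fastp, aligned them with HISAT2 to mm10 (build and tools per the submitters' processing notes) and deposited HTSeq read counts per gene. They also deposited FPKM values, used here for levels between genes. Tool versions, strand and multiple-match settings are not given in the sources used here.
Counts were filtered (filterByExpr, minimum 10, total 15), TMM-normalised and tested with edgeR 4.0.16 (R 4.3.3), quasi-likelihood, group as the only term, with Benjamini-Hochberg adjustment over 17255 genes and a threshold of 0.05. The SE was the log2 fold change over the root of F. DESeq2 1.42.0, limma 3.58.1 on log2(FPKM + 1) or log2(FPKM + 0.1), other normalisations and filters, a replicate block and leaving out each pool were alternatives.
The 9 factors and the lists were chosen with earlier results of these data known. Named genes were the 9, in each list the called genes and the 3 with most FPKM, and the 2 nearest profiles of each factor. Others were named as defining markers or after their values were seen. Positions came from GENCODE M21 for GRCm38. P-values measure the spread between pools. With 3 pools per group, an exact permutation test cannot go below 0.1, so none was used. A few listed genes that this rule names are not reported.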

Additional observations from a re-analysis of the deposited data

How the results depend on the processing

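No alternative with an adjusted p called any of the 9 factors, and the unadjusted p called 2. Zic1, Zic2, Zic4 and Zic5 had log2 fold changes below 0 in every alternative that changed 1 choice, from -0.66 to -0.28, -0.59 to -0.16, -0.53 to -0.17 and -0.59 to -0.24. Relative to the GABA genes and without olanzapine pool 1, both together, they came to -0.20, -0.06, -0.10 and -0.16. Single pools turned the sign of Six3, Meis2, Nkx2-1 and Lhx6, and not that of Foxp2. Leaving out 1 pool gave -0.39 to 0.053 for Six3 (above 0 without olanzapine pool 1), -0.18 to 0.045 for Meis2 (above 0 without control pool 2 or olanzapine pool 1), -0.15 to 0.19 for Nkx2-1 (above 0 without control pool 1 or olanzapine pool 1) and -0.056 to 0.35 for Lhx6 (below 0 without control pool 3). Meis2 came to 0.053 after subtracting the median of genes of like span. Relative to the GABA genes, an alternative added after seeing the data, Meis2 came to 0.15, Nkx2-1 to 0.19 and Foxp2 to 0.011. Nkx2-1 came to 0.0017 with upper-quartile normalisation and to 0.0018 with limma on log2(FPKM + 1) whether or not low genes were filtered. The causes of these changes of sign were not tested.
Over all tested genes, edgeR called 401, 316 higher and 85 lower. DESeq2 called 1099 (640 higher, 459 lower), limma without a filter 240 (218 and 22), the limit on the fold change left 174 (164 and 10), and the unadjusted p gave 3035 (1586 and 1449). Leaving out 1 pool gave between 131, without control pool 2, and 508, without olanzapine pool 1. The listed genes other than the 9 had 15 calls, and 39 at an unadjusted p. No scaling moved the median of all genes by more than 0.1.
The replicate number as a block gave 140 calls (128 and 12) and again 0 of the 9 factors. The deviations of same-numbered pools correlated at 0.07, 0.03 and -0.32, while control pool 3 and olanzapine pool 2 correlated at 0.49. No pool correlated best with its own number, so the numbers were not read as pairs.
With 3 pools of 3 mice per group, a log2 difference as small as the SE of these factors, 0.13 to 0.24, was not detectable.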
